A study of Homo sapiens with 4 samples.

Results

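Ribosomal RNA (rRNA) features were examined in small extracellular vesicles (particles enclosed by membrane and shed by cells) of HT29, a colon cancer cell line. The annotation that came with the counts types 11 features of the count table as rRNA, out of 155642 features in all, and the 10 of them with at least 1 count over the libraries are described here. By the genes at their loci, 2 are 5S features, 1 is the 5.8S feature and 7 are others, of which 5 resemble 5.8S and 2 resemble 5S. The members were chosen by their annotated type and their total count, so the counts over all libraries are a description: 5S held 62.1% of the 1464269 counts on the members, 5.8S held 37.0% and the others 0.894%. The members just inside the rule were RF00001.9 with 1 count and RF00001.11 with 8, and the feature left out, RF00001.12, had 0.

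There were 4 libraries. In 2 of them, called control, the vesicles came from HT29 cells carrying a non-targeting shRNA, and in the other 2 from HT29 cells with an shRNA directed at p53. This transcription factor is a tumour suppressor, and HT29 cells carry a mutant form of it. The level of p53 itself was not analysed here. All cells were at passages 5 to 15 and all RNA was selected at 18 to 40 nt, so a count on an rRNA is a fragment of it and not a measure of the intact RNA. Whether replicates were separate cultures, and whether a line is 1 clone, is not in the labels, so a p-value here reflects the spread of these samples alone, possibly a technical one. Fewer vesicles and less of an RNA per vesicle cannot be told apart in such bulk libraries.

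As background, 5S and 5.8S are the small rRNAs of the large ribosomal subunit and come from different genes. RNA polymerase III makes 5S from a tandem array of genes, whereas 5.8S is cut from the long 45S precursor that RNA polymerase I makes and that also gives 18S and 28S. Free 5S bound by the ribosomal proteins RPL5 and RPL11 can hold the ubiquitin ligase MDM2, which otherwise marks p53 for degradation. The genome also holds rRNA pseudogenes, altered copies of these genes.

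The 5S genes form an array on chromosome 1 (GRCh38) of 17 copies. The first feature covers 16 of these (RNA5S1 to RNA5S8 and RNA5S10 to RNA5S17, between 228610268 and 228646158, minus strand), and the second covers RNA5S9 (228628148 to 228628266, minus strand).

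The 5.8S feature has 4 loci on chromosome 21 (8212572 to 8212724, 8256781 to 8256933, 8395607 to 8395759 and 8439823 to 8439975, plus strand). RefSeq (GRCh38.p14) places RNA5-8SN2, the pseudogene RNA5-8SP10, RNA5-8SN3 and RNA5-8SN1 there, and the 4 loci share 1 sequence. The sequences below, taken from GENCODE 29 transcripts at these loci and at those of the 5.8S-like copies (GRCh38), show which fragments can tell the members apart. In the 5.8S sequence capitals mark bases within runs of at least 18 bases that are unchanged in 1 or more of the 5.8S-like copies, and in the copies capitals mark bases that differ from 5.8S.
5.8S: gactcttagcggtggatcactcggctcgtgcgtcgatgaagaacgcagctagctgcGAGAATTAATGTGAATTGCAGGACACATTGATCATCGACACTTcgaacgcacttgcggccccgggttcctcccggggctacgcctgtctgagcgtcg
RNA5-8SP: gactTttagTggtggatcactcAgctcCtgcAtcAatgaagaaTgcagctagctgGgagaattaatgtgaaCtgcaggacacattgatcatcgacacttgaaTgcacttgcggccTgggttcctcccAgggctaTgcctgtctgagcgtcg
LOC110467520: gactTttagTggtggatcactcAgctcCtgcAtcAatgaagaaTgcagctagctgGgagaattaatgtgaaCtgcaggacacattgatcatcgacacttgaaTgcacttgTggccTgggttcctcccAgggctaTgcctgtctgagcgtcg
LOC110467523: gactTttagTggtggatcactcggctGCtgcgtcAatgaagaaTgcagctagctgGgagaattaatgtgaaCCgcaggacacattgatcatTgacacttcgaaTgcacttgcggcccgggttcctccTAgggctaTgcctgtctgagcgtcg
LOC110467522: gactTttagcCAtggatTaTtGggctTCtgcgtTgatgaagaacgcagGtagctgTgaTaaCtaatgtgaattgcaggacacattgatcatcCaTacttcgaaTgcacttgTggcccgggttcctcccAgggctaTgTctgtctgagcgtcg
LOC110467521: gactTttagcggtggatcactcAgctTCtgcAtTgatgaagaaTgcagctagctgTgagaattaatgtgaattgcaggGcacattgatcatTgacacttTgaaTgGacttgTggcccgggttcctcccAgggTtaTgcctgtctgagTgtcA
RefSeq lists all 5 copies as pseudogenes. RNA5-8SP lies on chromosome 14 (16057472 to 16057622, plus strand) and LOC110467520 on chromosome 22 (11249809 to 11249959, minus strand). LOC110467521 (29297095 to 29297246), LOC110467522 (29741510 to 29741661) and LOC110467523 (30484925 to 30485076) lie on the minus strand of chromosome 20.

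The copies were between 86.3% and 90.2% identical to 5.8S. They differed from it at 37 of its 153 positions, of which 5 carried the same substitution in all 5 copies and 18 were changed in 1 copy alone. RNA5-8SP and LOC110467520 differed by 1 base, C111T from the former to the latter (counted from 1 at the 5′ end of RNA5-8SP), and shared 116 of 134 windows of 18 nt. LOC110467523 stood closer to this pair, with 94.7% identity to RNA5-8SP and 36 of its 135 windows in common, than LOC110467522 and LOC110467521, which shared 6 and 3 of their 135 windows with RNA5-8SP. The shared stretch between 5.8S and any copy lies within bases 57 to 99, and 111 of the 136 windows of 5.8S were found in none of the copies. Most 18-nt fragments of 5.8S thus have 1 exact source among these 6 features, while most of those of RNA5-8SP and LOC110467520 have more.

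**Figure D1:**
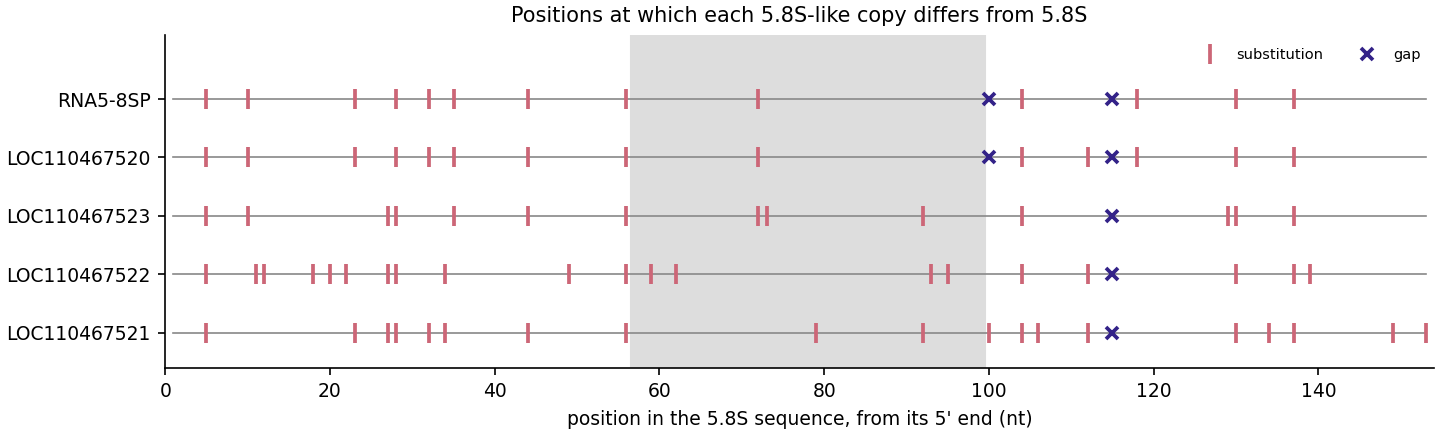
Positions at which the 5 copies that resemble 5.8S differ from it, on the horizontal axis in nt from the 5′ end of 5.8S, with a red bar for a substitution and a cross for a base that the copy lacks. The grey band, bases 57 to 99, covers the runs of at least 18 bases that 1 or more copies keep unchanged.

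No member overlapped another feature, so all of their bases could take counts. The libraries ranged from 938754 to 2611032 counts, with the controls the shallower 2. All 2459 mature miRNA features were at 0, and 11 hairpins that mark colon epithelium held 5 counts in all, so the cell type of the label could not be checked. Hairpins that mark stroma (5), liver (1) and muscle or neural tissue (6) were at 0, and those of blood (6, of which 5 were in the table) held 2 counts, both in control replicate 2. Normalised values are CPM, counts scaled to 1000000 per library with TMM factors, and changes are p53 shRNA against control from edgeR's quasi-likelihood test over 2780 features that passed its filter on low counts.

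The 5S array set the p53 shRNA libraries apart from each other and not from the controls. The feature of 16 loci had 103758 counts in control replicate 1, 58811 in control replicate 2, 615482 in p53 shRNA replicate 1 and 78147 in p53 shRNA replicate 2. Pairs of values below keep this order. These were 9.44% and 6.26% of the control libraries and 23.6% and 4.03% of the p53 shRNA libraries. The p53 shRNA libraries lay on either side of both controls, 1 far above and 1 below. In CPM the values were 105650 ± 67030 in control and 126700 ± 131791 in p53 shRNA libraries (SD, n = 2). The fitted log2 change was 0.26 (SE 1.53, edgeR adjusted p = 0.963). The difference was smaller than the spread within a group. Without p53 shRNA replicate 1 the log2 change was −1.50, without p53 shRNA replicate 2 it was 1.36, and without control replicates 1 and 2 it was 0.93 and −0.20, so that no direction can be given for 5S.

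RNA5S9 followed the other 5S copies in all 4 libraries. It had 6195 and 3512 counts in control and 38219 and 4580 in p53 shRNA libraries. This was 0.955 times the mean count per locus of the other 16 copies in both controls, and 0.994 and 0.938 times it in p53 shRNA replicates 1 and 2. As a share of all 5S counts it was 5.63% (95% Wilson interval 5.50 to 5.77) and 5.64% (5.46 to 5.82) in the controls and 5.85% (5.79 to 5.90) and 5.54% (5.38 to 5.69) with p53 shRNA, where an equal split over 17 copies gives 5.88%. The share lay just below the equal split in 3 libraries and its interval included it in p53 shRNA replicate 1, the library richest in 5S. Wilson intervals cover counting error only. The log2 change of RNA5S9 was 0.31 (SE 1.56, edgeR adjusted p = 0.968), −1.53 when p53 shRNA replicate 1 was left out and −0.15 when control replicate 2 was, against 1.42 and 0.98 when p53 shRNA replicate 2 and control replicate 1 were. Copies can share reads, so the counts of RNA5S9 cannot be assigned to its gene alone.

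The 5.8S feature was lower in both p53 shRNA libraries than in both controls. It had 128898 and 122073 counts in control and 186761 and 104747 in p53 shRNA libraries, which were 11.7% and 13.0% of control and 7.15% and 5.40% of p53 shRNA counts. The groups did not overlap, and the mean share was 1.97 times higher in the controls (12.4% ± 0.907 against 6.27% ± 1.24, SD, n = 2). The exact permutation test of 2 libraries against 2 cannot give a two-sided p below 0.333, so none is given for shares. In CPM the values were 190131 and 120914 in control and 66723 and 44917 in p53 shRNA libraries, again without overlap. The log2 change was −1.48 (SE 0.43), and it did not pass in edgeR's quasi-likelihood test without a replicate block (adjusted p = 0.431). With the replicate number as a block it did (log2 change −1.47, edgeR adjusted p = 0.0273), but the labels tie same-numbered libraries by number only. The call thus depends on that choice. Without a block, the log2 change stayed below 0 when any library was left out, between −1.66 and −0.96, the latter without p53 shRNA replicate 2.

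Scaling on library totals moved the median log2 change of all tested features from 0.05 to 0.49. Relative to that median, 5.8S was at −1.45 on library totals and at −1.52 with TMM, and the 5S feature of 16 loci at 0.35 and 0.22. The TMM factor was lowest in control replicate 1, at 0.637, so its values stand higher against the other libraries in CPM than in shares.

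**Figure D2:**
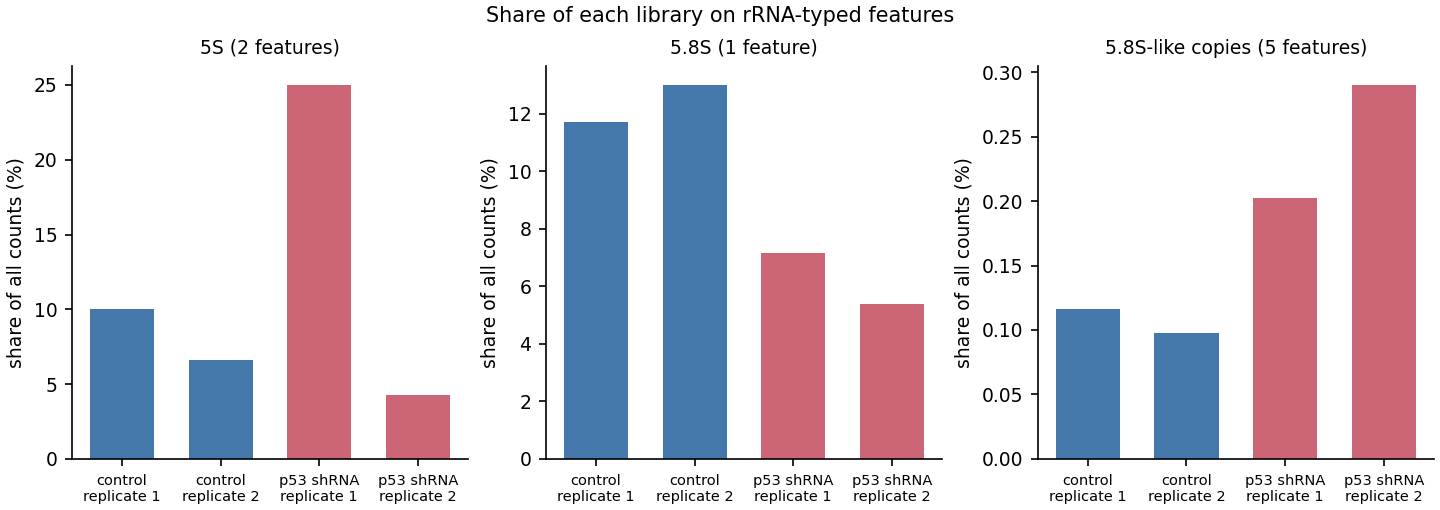
Share of all counts of each library (vertical axes, in %, from 0, each with its own scale) on the 5S features, on 5.8S and on the 5.8S-like copies, with control bars in blue and p53 shRNA bars in red. For 5S the p53 shRNA bars are the highest and the lowest (4.26%), 5.8S is lower in both p53 shRNA libraries, and the copies are higher in both.

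Among the 8 members tested, 7 had a log2 change above 0 and 5.8S alone lay below it, with a median of 0.44 against 0.05 over all tested features. No member was called by edgeR without a replicate block at an adjusted p of 0.05, as in 0% of all 2780 features. Over these features the smallest edgeR adjusted p was 0.122. The DESeq2 Wald test and limma voom also called 0 members. At an unadjusted p under 0.05 edgeR gave 1 member, LOC110467521 (higher), against 12.2% of all tested features, 4.35% higher and 7.81% lower. In CPM the groups did not overlap for 5.8S (lower) and LOC110467523 (higher), 2 of 8 members, against 41.5% of all tested features (22.9% higher and 18.6% lower). Such a share is not above the background.

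**Figure D3:**
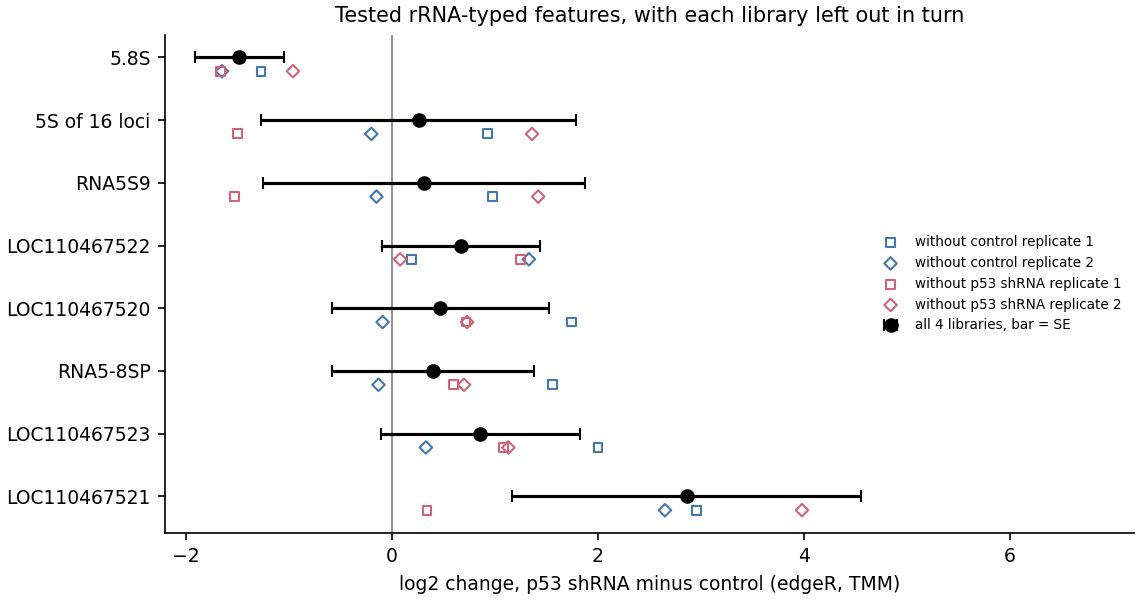
The log2 change of each tested member (horizontal axis, p53 shRNA minus control), with black points and SE bars for all 4 libraries and open symbols for fits without 1 library. The SE is from log2 CPM and not from the edgeR fit. The 5.8S symbols all lie below 0, from −1.66 to −0.96. Those of the 5S feature of 16 loci run from −1.50 to 1.36 and those of RNA5S9 from −1.53 to 1.42.

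The ratio of 5S to 5.8S compares both rRNAs within a library and needs no scaling between libraries. It was 0.853 and 0.511 in control and 3.50 and 0.790 in p53 shRNA libraries. Thus 5.8S had more counts than 5S in 3 libraries, and p53 shRNA replicate 1 alone had more 5S. Per base of RNA (119 for 5S and 153 for 5.8S) the ratios were 1.10 and 0.656 in control and 4.50 and 1.02 in p53 shRNA libraries. The groups overlapped, since p53 shRNA replicate 2 lay between the controls. On the log2 scale the ratio was 1.33 higher with p53 shRNA (SE 1.14), a difference close to its error. It was 0.26 without p53 shRNA replicate 1 and 2.41 without p53 shRNA replicate 2, so its size rests on replicate 1. Over the 2779 tested features other than 5.8S, the median log2 difference of the ratio to 5.8S was 1.64. Of these features 58.1% were higher by this ratio without overlap, so a higher ratio to 5.8S is not particular to 5S.

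Both rRNAs were also set against the counts at genes of 18S, the RNA of the small subunit, which is cut from the same precursor as 5.8S. Counts at 18S genes are those of 2 features, annotated as lncRNA, that lie antisense to 18S. The strand rule of the counts is not given, so whether they come from 18S itself was not tested. The 5.8S counts were 0.244 and 0.268 times those at 18S in control and 0.194 and 0.0930 times in p53 shRNA libraries. Both p53 shRNA values lay below both controls, and the log2 difference was −0.93 (SE 0.53). Of the 2778 tested features other than 18S, 12.1% were lower against 18S without overlap. The 5S counts were 0.209 and 0.137 times those at 18S in control and 0.678 and 0.0735 times in p53 shRNA libraries. These groups overlapped, and the log2 difference was 0.40 (SE 1.63).

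The 5.8S-like copies had higher shares in the p53 shRNA libraries, where 5.8S had a lower one. Together they held 1275 and 918 counts in control and 5262 and 5622 in p53 shRNA libraries, or 0.116% and 0.0978% against 0.202% and 0.290%. Both p53 shRNA libraries lay above both controls, and the mean share was 2.30 times higher. RNA5-8SP had 398 and 152 counts in control and 1342 and 1157 in p53 shRNA libraries. LOC110467520 had 401 and 139 against 1347 and 1233 counts. These near-identical copies had almost the same counts in every library, with a ratio of LOC110467520 to RNA5-8SP between 0.914 and 1.07, and they cannot be taken as separate RNAs. LOC110467523 had 280 and 108 counts in control and 1271 and 1139 in p53 shRNA libraries. Its count was 0.704 and 0.711 times that of RNA5-8SP in control and 0.947 and 0.984 times in p53 shRNA libraries, so that it came near to RNA5-8SP only in the p53 shRNA libraries. The 2 values of each group were closer to each other than to those of the other group (log2 difference 0.45, SE 0.03), a description of a ratio chosen after its values were seen. This SE rests on 2 values per group that lie close together. It can understate the counting error of counts as low as 108 and 152, and these copies can share reads.

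The other copies on chromosome 20 had patterns of their own. LOC110467522 had 190 and 513 counts in control and 1027 and 2073 in p53 shRNA libraries. Its shares were 0.0173% and 0.0546% against 0.0393% and 0.107%, higher in replicate 2 of each group, and the groups overlapped. LOC110467521 had 6 counts in each control and 275 and 20 with p53 shRNA, so 275 of its 307 counts lay in p53 shRNA replicate 1, the library with the most 5S. Its log2 change of 2.86 (SE 1.69, edgeR adjusted p = 0.394) was 0.34 without that library and 3.98 without p53 shRNA replicate 2.

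In the edgeR fit none of the copies passed. The log2 change was 0.40 (SE 0.98) for RNA5-8SP, 0.47 (SE 1.05) for LOC110467520, 0.86 (SE 0.97) for LOC110467523 and 0.67 (SE 0.77) for LOC110467522, with edgeR adjusted p between 0.826 and 0.942. In CPM, RNA5-8SP had 587 and 151 in the controls against 479 and 496 with p53 shRNA, so that its groups overlapped, unlike its shares. The same held for LOC110467520, with 591 and 138 against 481 and 529 CPM. In both copies the overlap came from control replicate 1, which has the lowest TMM factor. Without control replicate 1 the log2 changes were 1.56 for RNA5-8SP, 1.74 for LOC110467520 and 0.19 for LOC110467522, and that of LOC110467523 was the highest of its fits. Without control replicate 2 they were −0.13 for RNA5-8SP, −0.09 for LOC110467520, 0.33 for LOC110467523 and 1.33 for LOC110467522. That of LOC110467522 was 0.08 without p53 shRNA replicate 2 and 1.25 without p53 shRNA replicate 1. As shares of all counts, 4 of the 8 tested members were higher without overlap, all of them copies, against 33.2% of all tested features. The share of 5.8S was lower, against 12.7%. The 4 are not separate results, since RNA5-8SP and LOC110467520 are near-identical. LOC110467521 was among them with 6 counts in each control against 20 in p53 shRNA replicate 2, and its groups overlapped in CPM.

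Set against 5.8S within the same library, the copies had 9.89 and 7.52 counts per 1000 counts of 5.8S in control and 28.2 and 53.7 in p53 shRNA libraries. Every one of the 5 copies was higher by this measure in both p53 shRNA libraries than in both controls. LOC110467523 had 2.17 and 0.885 per 1000 in the controls against 6.81 and 10.9, and LOC110467522 had 1.47 and 4.20 against 5.50 and 19.8. The log2 ratio of the summed copies to 5.8S was 2.17 higher with p53 shRNA (SE 0.51), and lay between 1.71 and 2.64 with 1 library removed. The ratio to 5.8S was also higher without overlap in 58.1% of the 2779 other tested features and lower in 7.16% of them, and their median log2 difference was 1.64, with 5.8S, the common denominator, lower in both p53 shRNA libraries. The higher ratio is therefore not particular to the copies. Against the counts at 18S genes, which did not separate the groups, the copies had 2.42 and 2.01 counts per 1000 in control. In p53 shRNA libraries they had 5.46 and 4.99, also higher without overlap (log2 difference 1.24, SE 0.15), as were 33.0% of tested features.

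**Figure D4:**
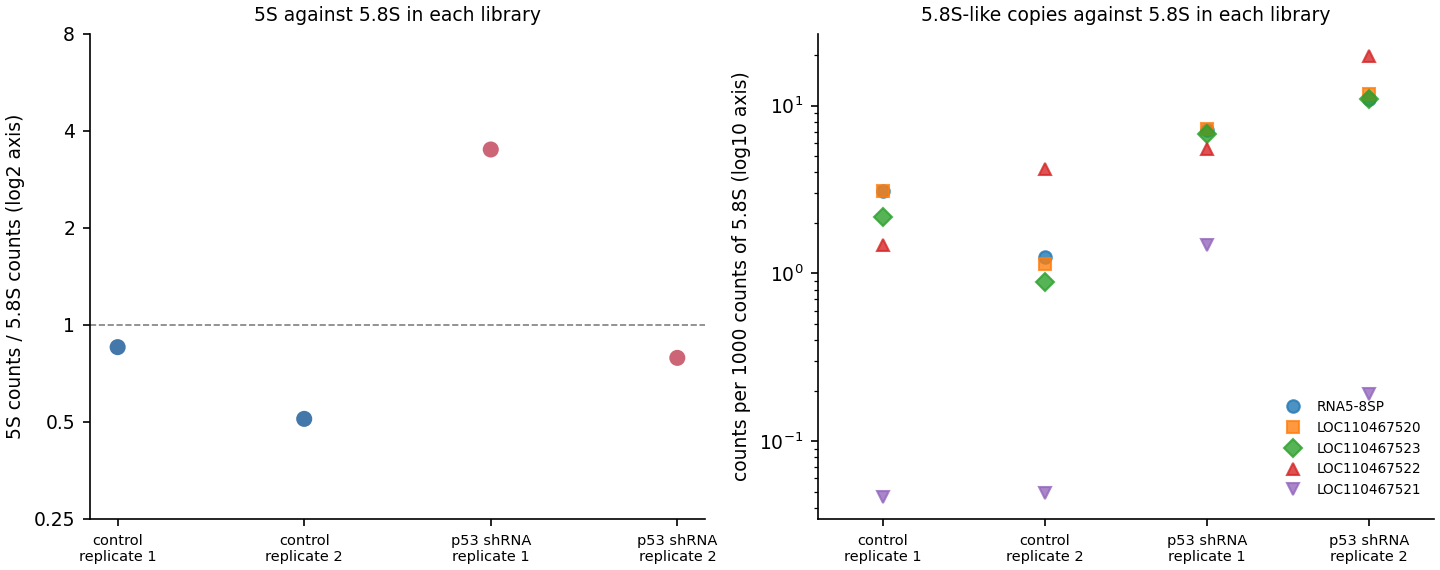
Left, 5S counts divided by 5.8S counts in each library on a log2 axis, with control points in blue and p53 shRNA points in red and a dashed line at 1, above which p53 shRNA replicate 1 alone lies (3.50). Right, counts of each 5.8S-like copy per 1000 counts of 5.8S on a log10 axis, with 1 symbol per copy, where all 5 copies are higher in both p53 shRNA libraries than in both controls.

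The 5S-like members were close to absent. RF00001.11, on chromosome 6 (15522195 to 15522300, minus strand), had 8 counts in p53 shRNA replicate 1 and 0 in the other libraries, and RF00001.9, on chromosome 2 (89600571 to 89600680, plus strand), had 1 count in control replicate 1. A count of 0 allows up to 3 counts, or between 1.15 and 3.20 per 1000000 counts in the 4 libraries, for counting error only. Neither passed the filter.

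The 1 feature over a 5S pseudogene that is typed otherwise was the hairpin MIR7641-2 over RNA5SP387 (chromosome 14, 75604209 to 75604261). It had 256 and 406 counts in control and 345 and 201 in p53 shRNA libraries, a log2 change of −1.90 (SE 0.26, edgeR adjusted p = 0.556). Per 1000 counts of 5S these were 2.33 and 6.51 in control and 0.528 and 2.43 in p53 shRNA libraries. As shares of all counts the hairpin had 0.0233% and 0.0432% in control and 0.0132% and 0.0104% in p53 shRNA libraries. It was lower without overlap, as were 12.7% of all tested features, and lower without overlap in CPM too. In p53 shRNA replicate 1, where 5S was highest, the hairpin share lay below both controls, so the feature did not follow 5S. Its ratio was lowest there, but 5S is the denominator, so the ratio adds no separate support.

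A set of features from other RNA classes that RNA polymerase III makes consisted mostly of Y RNA features. Whether each copy is itself transcribed was not tested. Of 886 features in this set (Y RNA, vault RNA, signal recognition particle RNA, RNase P RNA and features over RN7SK, RN7SL1, RN7SL2, RNU6 or RMRP genes), 67 were tested, 61 of them Y RNA, and 0 were called by edgeR. The log2 change was above 0 in 25 and below 0 in 42, with a median of −1.84 against 0.05 over all tested features. At an unadjusted p under 0.05, 0 were higher and 31 lower, 30 of the latter Y RNA, where 4.35% of all tested features were higher and 7.81% lower. The median was −2.30 for the 61 Y RNA features, −0.43 for 3 vault RNA features and 0.90 for 2 signal recognition particle RNA features. Y RNA copies can share reads, so these features are not separate results. Summed over all 696 Y RNA features, the shares were 1.30% and 1.46% in control and 1.96% and 0.241% in p53 shRNA libraries. These sums overlapped between the groups, so no direction is given for the family. RNY1, which like other Y RNAs binds the protein Ro60, had 7803 and 11602 control counts against 977 and 1251 (log2 change −4.70, SE 0.31, edgeR adjusted p = 0.122). VTRNA1-2, the vault RNA with the most counts, had 12668 and 7492 control counts against 7117 and 1750 (log2 change −2.99, SE 1.10, edgeR adjusted p = 0.261), lower in CPM without overlap. Another vault RNA, VTRNA1-3, had 1753 and 297 control counts against 6371 and 1043, and a Y RNA family feature on chromosome 10 (RF00019) had 400 and 50 against 3277 and 186. These last 2 features, like 5S, had their highest counts in p53 shRNA replicate 1, the deepest library (2611032 counts), and their groups overlapped in CPM. In CPM, VTRNA1-3 was highest in control replicate 1, unlike 5S.

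Of 19 features over genes of the 5S particle or of rRNA processing, 4 were tested and 0 called by edgeR, with a median log2 change of −1.27. They were snoRNAs. SNORD14D and SNORD14C, 2 forms of a snoRNA needed for 18S processing, had 4589 and 533 against 6108 and 3278 counts and 1930 and 288 against 5648 and 2522 counts, with overlapping groups in CPM. SNORD21, which lies within RPL5, had 646 and 363 against 595 and 332 counts (log2 change −1.89, SE 0.76, edgeR adjusted p = 0.572). SNORD13, which guides a modification of 18S, had 13 and 16 against 10 and 20 counts (log2 change −1.52, SE 0.54, edgeR adjusted p = 0.529).

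The profiles most like those of 5S and 5.8S were found among 230 features with a mean of at least 100 CPM, by the Euclidean distance between log2 CPM over the 4 libraries, each centred on its mean. Nearest to 5S among those with a gene name were SNORA31 (distance 0.67, with 98 and 40 counts in control and 773 and 60 in p53 shRNA libraries), SNORA75 (0.72, with 130 and 65 against 396 and 72) and SCARNA22 (0.86, with 616 and 358 against 6143 and 338). In counts all 3 were highest in p53 shRNA replicate 1, while in CPM SNORA75 was highest in control replicate 1. Nearest to 5.8S, again by gene name, were RNVU1-7, a variant U1 spliceosomal RNA (distance 0.23, with 3600 and 2845 against 5253 and 2610 counts), SNORD15B (0.35, with 493 and 330 against 605 and 332) and SNORD17 (0.49, with 158 and 113 against 145 and 113). A distance over 4 libraries is a description only.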

How the data were processed

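Total RNA of small extracellular vesicles was measured in 4 small RNA libraries, 2 per group. The values the authors deposited are raw counts, integers per RNAcentral feature without scaling. The tools named by the submitters' processing notes are bcl2fastq 2.19, BWA 0.7.17 and Subread 1.6.3, with GRCh38 as the build. The rules for reads with several equal matches and for strand are not given in the sources used here, so reads of near-identical copies, or of both strands, cannot be told apart. The annotation the authors deposited lists 22 identifiers of type rRNA, of which 11 had a row of counts. It places some copies on no chromosome (4 of 5S, 6 of 5.8S), and these are not described here.

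The members and gene lists were chosen with earlier results of these data known. All members were named, with up to 4 features per related list and 5 nearest profiles, of which 3 are printed. Features were named by GENCODE 29 exons covering at least 50% of them (bedtools 2.31.1) and by RefSeq genes of GRCh38.p14. The main test was edgeR 4.0.16 (quasi-likelihood, TMM, its low-count filter, Benjamini-Hochberg adjustment at 0.05) in R 4.3.3. CPM and log2 values were computed here. The SE of a log2 change is from log2 CPM with a prior count of 2 and not from the edgeR fit. Sequences were aligned with Biopython 1.88. Those of the 5S features are not reported here. The script was tested on simulated data with far less spread than these libraries, so that test does not show what the fit can recover here. Alternatives were DESeq2 1.42.0, limma 3.58.1 voom, other scalings and filters, the replicate number as a block, summed members and each library left out.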

Additional observations from a re-analysis of the deposited data

How the results depend on the processing

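Of 98 values of the 8 tested members under the alternatives, 88 kept their direction, 10 in 4 members changed sign, none of those past the threshold, and 1 passed it. The 5S feature of 16 loci was at −0.10 with limma voom, −0.14 with the replicate number as a block, and between −1.50 and 1.36 with a library left out. RNA5S9 was at −0.09 with voom, −0.12 with the replicate block and between −1.53 and 1.42 with a library left out. With a library left out, LOC110467520 lay between −0.09 and 1.74 and RNA5-8SP between −0.13 and 1.56. The cause was not tested. With the replicate block, 5.8S was called lower (log2 change −1.47, edgeR adjusted p = 0.0273), while its adjusted p ranged up to 0.979 over the alternatives. The labels tie same-numbered libraries by number only. Their replicate differences correlated across features at 0.395 between the groups. Over all features edgeR called 12 higher and 91 lower with the block, and 5 higher and 29 lower with scaling on features outside ribosomal genes, a choice made after the data were seen. The DESeq2 Wald test called 0 higher and 29 lower, and the other fits 0.

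The log2 ratio of mean shares was 0.82 for 5S (−0.96 to 1.59 with a library left out, the lowest without p53 shRNA replicate 1), −0.98 for 5.8S (−1.20 to −0.79) and 1.20 for the other members. Among rRNA-typed counts alone it was −0.65 for 5.8S and 1.78 for the other members. The other members held 0.531% and 0.495% of these counts in control and 0.623% and 2.91% in p53 shRNA libraries. Their value thus rests mostly on p53 shRNA replicate 2. For 5.8S the shares were 53.7% and 65.9% against 22.1% and 54.2%, so the groups overlapped. For the ratio of 5S to 5.8S, same-numbered pairs gave log2 differences of 2.04 and 0.63, and the replicate block gives their mean, 1.33, by construction. RF00001.9 and RF00001.11 were too low for the filter and were not tested.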
